A study of Mus musculus with 2 samples.

Results

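The 10 genes described here are *Hspa5*, *Hsp90b1*, *Pdia4*, *Dnajb9*, *Xbp1*, *Atf4*, *Atf6*, *Ddit3*, *Trib3* and *Asns*, members of the unfolded protein response and the integrated stress response. They were taken by name, among 23951 gene symbols listed in both libraries, and each had 1 row in each library. Gene expression was measured by RNA-seq in optic nerves of mice at P12, when this white matter tract is being myelinated, with 1 library from control mice and 1 library from *Tcf7l2*ΔHMG mice. Control mice carried the floxed allele of *Tcf7l2*, a transcription factor of the Wnt pathway, on 1 chromosome (Tcf7l2 c/+; OLig1-cre), and *Tcf7l2*ΔHMG mice carried it on both (Tcf7l2 c/c; OLig1-cre). Both genotypes therefore carried the Olig1-Cre driver, which is active in the oligodendrocyte (OL) lineage, and in cells of that lineage the control retained 1 intact allele. Cre removes the exon that encodes the DNA-binding HMG domain, and the mutant messenger RNA may still be made, so that the deletion cannot be read from the expression of the whole gene. The strain background of the mice was mixed (C57Bl/6, 129Sv and CD-1), and how many animals went into each library is not given in the sources used here. With 1 library per genotype there was no replicate, no difference could be tested, and the values below compare these libraries.

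The unfolded protein response is the programme by which a cell matches the folding capacity of its endoplasmic reticulum (ER) to the load of secreted and membrane proteins. The membrane sensors IRE1 (*Ern1*), PERK (*Eif2ak3*) and ATF6 start it. IRE1 splices *Xbp1* messenger RNA into a form that encodes an active transcription factor, ATF6 is cut to free its own, and PERK phosphorylates the translation factor eIF2. Phosphorylated eIF2 is the common step of the integrated stress response, which other kinases also trigger, and it favours translation of ATF4. Because *Xbp1* is also controlled by splicing, *Atf6* by cleavage and *Atf4* by translation, the summed expression of these genes does not by itself report their activity. Chaperone genes and *Asns* are among the transcriptional targets of these responses. Myelinating OLs make large amounts of membrane protein and lipid, and inherited mutations of eIF2B cause a disease of white matter in which the integrated stress response takes part.

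Values are FPKM, fragments scaled to transcript length and to the depth of the library, which allows levels to be compared between genes. Depth, read from the tables, came to 27624000 fragments for control and 39938000 for *Tcf7l2*ΔHMG nerves. *Tcf7l2* itself was measured at 17.8 FPKM in control nerves and 14.6 FPKM in mutant nerves, a log2 ratio of −0.28. Defining markers of OLs were present in both libraries, and all 9 that were listed were lower in the mutant, with a summed level of 13898 FPKM in control nerves and 6108 FPKM in mutant nerves. The 5 markers of meningeal fibroblasts, which secrete collagen, were all higher in the mutant, with summed levels of 848 and 1213 FPKM. The 3 markers of red blood cells (133 and 334 FPKM summed) and the 3 of neurons (7.64 and 15.5 FPKM summed) were each higher by more than 1.5-fold. Summed levels of the 6 astrocyte markers, 5 higher and 1 lower, were 5050 and 5963 FPKM. The 5 microglia markers, 4 higher and 1 lower, summed to 151 and 188 FPKM. Sums were lower in the mutant for the 4 OL precursor markers (319 and 266 FPKM, 3 of them lower). They were also lower for the 4 endothelial markers (106 and 95.1 FPKM, 2 of them lower). No marker of these types was listed at 0. In such tissue, fewer cells of a type and less RNA per cell cannot be told apart, and the part of cell composition in the values below was not tested.

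None of the 10 genes differed between the libraries by a fold change above 1.5, the cutoff used in the study. The log2 ratio of mutant to control, computed after 0.1 FPKM was added to both, ran from −0.10 for *Trib3* to 0.45 for *Pdia4*. Of 14199 genes that had at least 1 FPKM in at least 1 library, 15.4% were higher and 8.52% were lower in the mutant by more than 1.5-fold, 23.9% together. The filter kept 9 of the 10 genes and left out *Trib3*. The median log2 ratio was 0.10 over these 9 genes, 0.058 with *Trib3* included, and 0.047 over all genes tested. Among the 9 genes, 6 had a higher and 3 had a lower value in the mutant, and 54.6% of all genes tested had a ratio above 0.

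In place of replicate error, each FPKM has a confidence interval from Cufflinks, which covers sampling within 1 library and not the variation between animals. The intervals of both libraries lay apart for 3 of the 9 genes, *Pdia4* and *Xbp1* with higher and *Hspa5* with lower values in the mutant. Across all genes tested, they lay apart in 52.4%, with 30.0% higher and 22.3% lower in the mutant. Intervals that lay apart were thus no more frequent among the 9 genes than in the whole table.

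**Figure D1:**
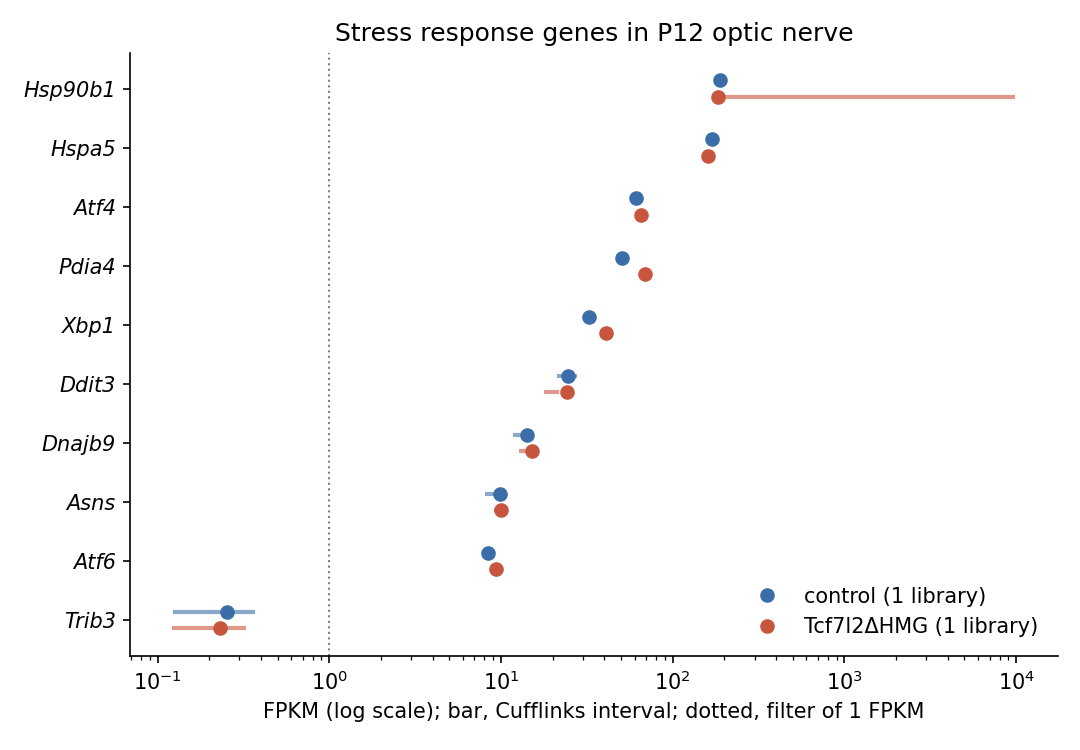
FPKM of the 10 stress response genes in the control library (blue) and the *Tcf7l2*ΔHMG library (red), on a log axis, with 1 library per genotype. Bars are the Cufflinks intervals, and the points of each gene lie close together over a span from 0.230 FPKM (*Trib3*, mutant) to 188 FPKM (*Hsp90b1*, control).

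The order of expression was nearly the same in both libraries. It began with *Hsp90b1* and *Hspa5*, went on with *Atf4*, *Pdia4*, *Xbp1*, *Ddit3*, *Dnajb9*, *Asns* and *Atf6*, and ended with *Trib3*. In the mutant, *Pdia4* stood above *Atf4*, but the intervals of these genes overlapped there. The intervals of *Asns* and *Atf6*, next to each other in both libraries, also overlapped, and all other neighbours were apart. *Hsp90b1* was expressed above 97.0% of genes tested in each library.

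Among the ER chaperones, the most abundant members were close to equal in both libraries and *Pdia4* was higher in the mutant on the deposited scale (lower, at −0.22, on the scale of all rows described with the scalings). *Hspa5*, which encodes BiP, the main Hsp70 chaperone of the ER and a binding partner of the stress sensors, lies on chromosome 2 from 34627610 to 34632049 (mm9, the build in the submitters' processing notes). It was measured at 169 FPKM in control nerves (interval 167 to 176) and 159.8 FPKM in mutant nerves (158 to 165), a log2 ratio of −0.084. The bounds of the intervals allow a log2 ratio from −0.15 to −0.013, so that the intervals lay apart although the mutant level was 0.944 times that of the control. In the mutant library, the row of the neighbouring gene *Rabepk* (7.95 FPKM) overlapped *Hspa5* by 1714 bases, and an effect of this on *Hspa5* was not tested.

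*Hsp90b1*, on chromosome 10 from 86153586 to 86168303, encodes GRP94, the Hsp90 chaperone of the ER. It was measured at 188 FPKM in control nerves (interval 185 to 194) and 184 FPKM in mutant nerves, a log2 ratio of −0.030. Its interval in the mutant ran from 169.6 to 9894 FPKM, so its upper bound sets no useful limit to the ratio. *Pdia4*, on chromosome 6 from 47746140 to 47763511, encodes ERp72, a disulfide isomerase with thioredoxin-like domains. It stood at 50.5 FPKM in control nerves (48.7 to 53.3) and 69.1 FPKM in mutant nerves (66.6 to 72.3), a log2 ratio of 0.45 with bounds of 0.32 and 0.57. This was 36.9% above the control, and 79.3% of genes tested had a lower ratio. The row is shared with the microRNA gene *Mir704*, so the value is that of both names.

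Promoter sequences show how far these chaperone genes share the known ER stress element, a site bound by NF-Y and ATF6 that is written CCAAT, then 9 bases of any kind, then CCACG. RefSeq windows of 300 bases (GRCm38.p6, 250 bases before the start site and 50 from it) were matched by symbol for 9 of the 10 genes, with *Atf6* not among them, and were searched on both strands. The full element was found in *Hspa5* and *Hsp90b1* and in 0.119% of 32851 windows of the same length. It contains the shorter words CCAAT and CCACG, found in 37.4% and 32.8% of windows. The windows of the 3 chaperones are shown, with the element in capitals in the first 2. A link between the element and the ratios of these genes was not tested. In *Pdia4*, which holds no exact match of the full element, each CCAAT or CCACG, on either strand, is in capitals. Near matches were not searched for. The *Pdia4* window does hold AGTGG, 9 bases and ATTGG, which on the other strand differs from the element only in its last base. The windows lie at chr2:34771840-34772139 (plus strand), chr10:86705395-86705694 (minus strand) and chr6:47813463-47813762 (minus strand).
Hspa5: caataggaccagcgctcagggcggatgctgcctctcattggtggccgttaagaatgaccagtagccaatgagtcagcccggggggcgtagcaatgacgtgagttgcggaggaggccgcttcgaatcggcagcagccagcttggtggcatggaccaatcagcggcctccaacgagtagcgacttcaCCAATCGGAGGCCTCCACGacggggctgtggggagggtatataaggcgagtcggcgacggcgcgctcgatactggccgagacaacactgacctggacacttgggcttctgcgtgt
Hsp90b1: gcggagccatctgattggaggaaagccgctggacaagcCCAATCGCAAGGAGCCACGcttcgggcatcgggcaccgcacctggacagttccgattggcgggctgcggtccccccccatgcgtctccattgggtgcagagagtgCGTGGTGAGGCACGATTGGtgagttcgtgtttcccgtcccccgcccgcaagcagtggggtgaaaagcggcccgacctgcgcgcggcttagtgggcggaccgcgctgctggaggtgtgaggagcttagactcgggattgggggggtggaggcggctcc
Pdia4: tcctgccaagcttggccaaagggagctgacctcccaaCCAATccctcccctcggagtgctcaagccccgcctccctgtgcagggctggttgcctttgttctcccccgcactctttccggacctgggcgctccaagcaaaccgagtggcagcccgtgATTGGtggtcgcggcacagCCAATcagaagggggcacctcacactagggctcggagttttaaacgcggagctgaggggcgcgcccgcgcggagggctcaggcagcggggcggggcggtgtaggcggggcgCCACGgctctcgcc

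The element of *Hspa5* ran from 65 to 47 bases before the start site. *Hsp90b1* held 2 elements, at 212 to 194 bases before it and, on the other strand, at 107 to 89 bases before it. *Pdia4* held CCAAT 3 times before the start site and CCACG 37 to 41 bases into the transcribed side. The matches are letters in a reference sequence and do not show that a factor was bound in these nerves.

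**Figure D2:**
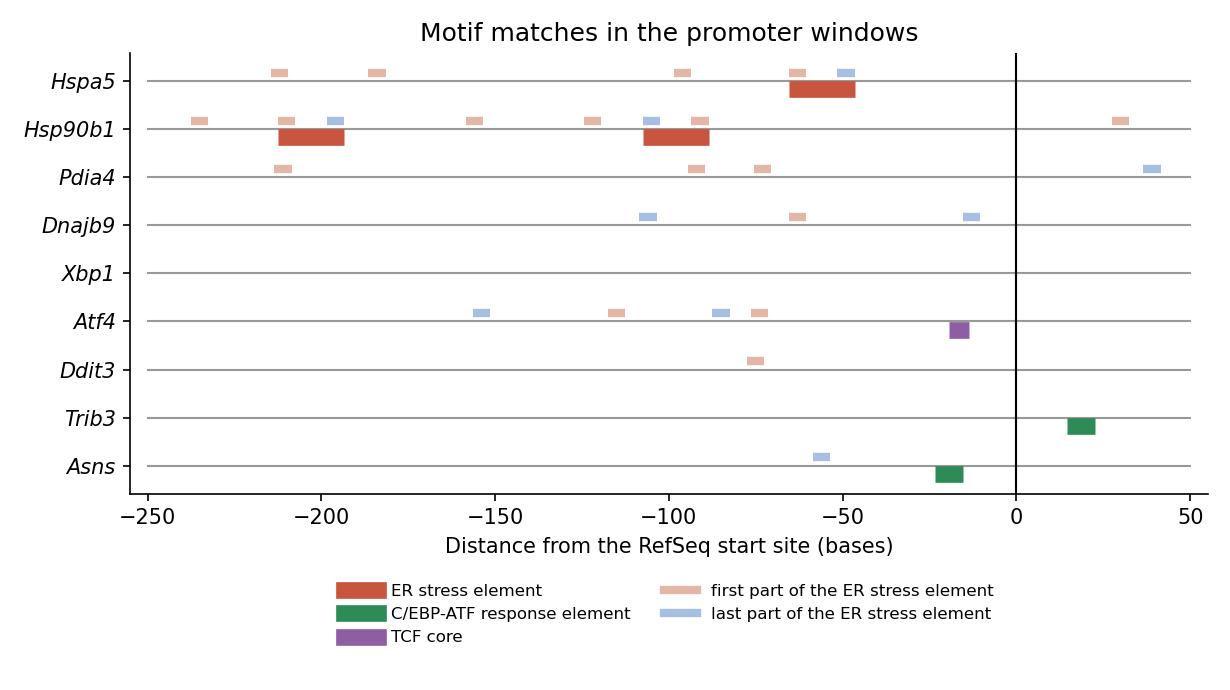
Positions of motif matches in the promoter windows of 9 genes, as distance in bases from the RefSeq start site. Thick blocks below each line are full motifs and thin blocks above it are the first and last part of the ER stress element alone. *Hspa5* has 1 and *Hsp90b1* has 2 full elements, *Asns* and *Trib3* have a C/EBP-ATF response element each, *Atf4* has a TCF core, and *Xbp1* has no match.

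Among the members, *Xbp1*, *Atf6* and *Dnajb9* of the IRE1 and ATF6 branches had slightly higher values in the mutant library on the deposited scale. Only for *Xbp1* did the intervals lie apart. On the scale of all rows these members were all lower (*Xbp1* at −0.34). *Xbp1*, on chromosome 11 from 5420644 to 5425996, encodes the transcription factor whose messenger RNA IRE1 splices. It was measured at 32.6 FPKM in control nerves (interval 30.7 to 34.5) and 40.9 FPKM in mutant nerves (39.6 to 42.9), a log2 ratio of 0.33 with bounds of 0.20 and 0.48, and 72.9% of genes tested had a lower ratio. Spliced and unspliced forms were not distinguished in these tables. In the control library, 2 short rows with no gene name, of 147 and 124 bases, lay inside *Xbp1*. Their values of 52.4 and 151 FPKM lay far above their own intervals, whose upper bounds were 7.14 and 10.8 FPKM (29 and 37 fragments), and an effect of these rows on *Xbp1* was not tested. Neither the ER stress element nor its CCAAT or CCACG part was found in the window of *Xbp1*.

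*Atf6*, on chromosome 1 from 172634588 to 172797902, encodes the membrane-bound factor that is cleaved in the Golgi under ER stress. It was measured at 8.39 FPKM in control nerves (7.83 to 8.87) and 9.40 FPKM in mutant nerves (8.86 to 9.84), a log2 ratio of 0.16, and the intervals just overlapped. *Dnajb9*, on chromosome 12 from 45306884 to 45311055, encodes ERdj4, a co-chaperone of BiP in ER-associated degradation and a known target of XBP1. It stood at 14.1 FPKM in control nerves (11.8 to 14.4) and 15.2 FPKM in mutant nerves (12.8 to 15.1), a log2 ratio of 0.10 with bounds of −0.17 and 0.36. The mutant value lay just above its own interval. A difference of *Atf6* or *Dnajb9* was not detectable within these intervals.

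For the integrated stress response, the values of *Atf4* and its targets *Ddit3*, *Trib3* and *Asns* were all within 10% of the control on the deposited scale. On the scale of all rows they were all lower, and *Ddit3* (−0.68) and *Asns* (−0.64) passed 1.5-fold. *Atf4*, the transcription factor of the response, lies on chromosome 15 from 80085614 to 80087975 and was measured at 61.1 FPKM in control nerves (57.9 to 64.5) and 65.4 FPKM in mutant nerves (62.7 to 68.7), a log2 ratio of 0.098. *Ddit3*, on chromosome 10 from 126727849 to 126733344, encodes CHOP, which is linked to cell death under prolonged stress. It was measured at 24.4 FPKM in control nerves (21.1 to 27.9) and 24.2 FPKM in mutant nerves, a log2 ratio of −0.016. The mutant value lay above its own interval of 17.7 to 21.6 FPKM, and the bounds allow a log2 ratio from −0.65 to 0.040. *Mars*, the gene of a tRNA synthetase, overlapped *Ddit3* by 68 bases in both libraries, at 22.2 and 18.4 FPKM.

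*Asns*, on chromosome 6 from 7625171 to 7643182, encodes asparagine synthetase, which ATF4 activates when amino acids are short. Its values were 9.83 FPKM in control nerves (8.12 to 10.3) and 9.95 FPKM in mutant nerves (9.10 to 10.8), a log2 ratio of 0.018 with bounds of −0.18 and 0.41 (−0.052 when the named rows of each library were rescaled to the same sum). *Trib3*, on chromosome 2 from 152163161 to 152169796, encodes a pseudokinase that CHOP and ATF4 induce. It was close to the limit of detection, at 0.255 FPKM in control nerves (0.124 to 0.371) and 0.230 FPKM in mutant nerves (0.122 to 0.330). With the longest coding transcript of the GENCODE annotation, these levels correspond to about 14.3 and 18.6 fragments, whereas each of the other 9 genes had at least 548 in the control and 801 in the mutant. The bounds for *Trib3* allow a log2 ratio from −1.08 to 0.94, so that a difference was not detectable at this depth.

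ATF4 binds with C/EBP factors to a composite element whose core is written TGATGNAA. This core was found in the windows of *Asns* and *Trib3* and in 3.97% of all 32851 windows. Both are shown with the match in capitals because they are the ATF4 targets among the members that hold it, at chr6:7693160-7693459 and chr2:152344011-152344310, each on the minus strand. The window of *Ddit3* holds none.
Asns: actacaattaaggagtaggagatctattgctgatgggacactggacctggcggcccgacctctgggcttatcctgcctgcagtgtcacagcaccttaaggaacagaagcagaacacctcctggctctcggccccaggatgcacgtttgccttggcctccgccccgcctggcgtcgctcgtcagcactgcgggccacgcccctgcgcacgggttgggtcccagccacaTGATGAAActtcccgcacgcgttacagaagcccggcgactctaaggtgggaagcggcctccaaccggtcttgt
Trib3: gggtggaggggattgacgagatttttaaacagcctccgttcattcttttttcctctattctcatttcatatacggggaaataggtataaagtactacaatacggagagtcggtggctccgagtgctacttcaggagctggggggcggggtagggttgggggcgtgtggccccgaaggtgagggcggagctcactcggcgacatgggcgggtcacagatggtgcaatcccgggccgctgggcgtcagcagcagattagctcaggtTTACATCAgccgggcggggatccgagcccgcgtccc

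In *Asns* the match lay 23 to 16 bases before the start site, and in *Trib3* it lay 15 to 22 bases after it, on the other strand. Despite this shared core, the genes were expressed at very different levels, with *Trib3* at 2.59% of *Asns* in control and 2.32% in mutant nerves. The core of the TCF motif, TCAAAG, to which Tcf7l2 can bind, occurred in 16.0% of windows and, among the members, only in *Atf4*, at 19 to 14 bases before the start site. Neither the ER stress element II (0.0365% of windows), written ATTGG, any base, CCACG, nor the unfolded protein response element TGACGTGG (0.676%) occurred in a window of the 9 members. A missing match says only that these letters are not in this stretch.

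Ratios between members within a library do not depend on how the libraries are scaled. *Pdia4* was expressed at 29.8% of the level of *Hspa5* in control and 43.3% in mutant nerves, which is a log2 change of 0.54. *Hsp90b1* stood at 111% and 115% of *Hspa5*, a log2 change of 0.054. By these values, *Pdia4* changed relative to *Hspa5* more than *Hsp90b1* did. The percentages carry no bounds, and the interval of *Hsp90b1* in the mutant reached 9894 FPKM. *Xbp1* was at 53.3% and 62.5% of *Atf4*, *Ddit3* at 40.0% and 36.9%, and *Asns* at 16.1% and 15.2%.

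All log2 ratios fell below 0 only when rows with no gene name were counted in the scale. With scaling to the 75th percentile of named genes with a value, 6 of the 9 genes tested stayed above 0. With named rows rescaled to the same sum, or ratios centred on the median, 5 did. Rows with no gene name held 70.7% of the total FPKM of the control library and 80.7% of that of the mutant library. After all rows of each library were rescaled to a sum of 1000000, the median log2 ratio over genes tested moved from 0.047 to −0.63. Then 485 genes were higher and 7182 lower by more than 1.5-fold, against 2185 and 1210 before. The filter was applied to the rescaled values, so these counts do not cover the same genes. On that scale all 10 genes had a ratio below 0, and *Hspa5*, *Hsp90b1*, *Ddit3* and *Asns* passed 1.5-fold downwards. Rescaling moves the log2 ratios of genes far above the added 0.1 FPKM by nearly the same amount. Their values relative to the median of all genes therefore stay nearly the same by construction. Relative to that median, *Pdia4* was at 0.41 on both scales, and *Xbp1* was at 0.28 and 0.29. *Hspa5* was at −0.13 relative to the median on either scale. *Trib3*, whose values are close to the added 0.1 FPKM, went from −0.15 to 0.17 relative to it.

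**Figure D3:**
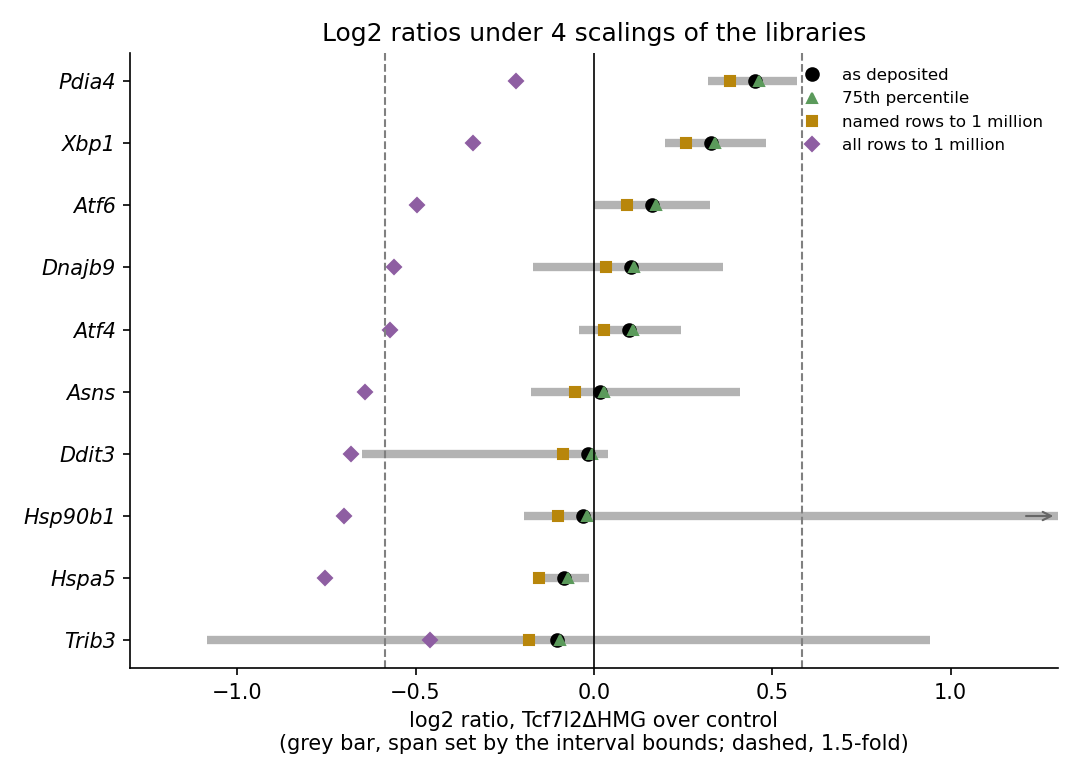
Log2 ratio of *Tcf7l2*ΔHMG to control for the 10 genes under 4 scalings, with the span set by the Cufflinks bounds as grey bars and a fold change of 1.5 as dashed lines. Values as deposited run from −0.10 (*Trib3*) to 0.45 (*Pdia4*), rescaling all rows moves all 10 below 0, and the bar of *Hsp90b1* continues beyond the axis.

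The other genes of these pathways were read in 7 lists that hold the members among them, with the same cutoff, which 15.4% of all genes tested passed upwards and 8.52% downwards. Among 21 ER chaperones and folding enzymes, 1 was higher, none was lower, and the median log2 ratio was −0.030. The gene past the cutoff was *Canx*, which encodes the lectin chaperone calnexin, at 125 and 189 FPKM (log2 ratio 0.60). It no longer passed the cutoff once ratios were centred on the median of all genes, and its log2 ratio on the scale of all rows was −0.073. Among 27 genes of ER-associated degradation and protein translocation, 3 were higher and none was lower, with a median of −0.0034. *Erlec1*, which encodes an ER lectin, stood at 17.6 and 40.3 FPKM (log2 ratio 1.19). *Derl3*, of the Derlin family, was at 0.608 and 1.28 FPKM (0.97), and *Herpud1*, an ER stress-inducible component of the degradation complex, at 19.3 and 33.5 FPKM (0.79). *Derl3* passed the filter only through its mutant value, and 2 genes of the list were higher when at least 1 FPKM was required in both libraries.

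The sensors and transducers of ER stress had 10 of 13 listed genes above the filter, with 1 higher, none lower and a median log2 ratio of 0.10. *Creb3l1*, which encodes OASIS, a factor of the ATF6 kind that acts on collagen genes in bone, was at 12.9 and 19.7 FPKM (log2 ratio 0.61), below the cutoff once ratios were centred on the median of all genes and at −0.060 on the scale of all rows. The 5 meningeal fibroblast markers, 2 of them collagen genes, had log2 ratios from 0.28 to 0.78 in the same libraries, and their part in the value of *Creb3l1* was not tested. Among 12 genes of the eIF2 kinases, the eIF2B complex and the eIF2 phosphatase, none was higher and 1 was lower, with a median of −0.13. The gene that was lower was *Eif2ak4*, which encodes GCN2, the kinase that senses a lack of amino acids, at 9.99 and 4.47 FPKM (log2 ratio −1.14).

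The list of transcription factors and effectors of the ATF4 axis held the largest share of higher genes, 5 of 15 (33.3%). The share over all genes tested was 15.4%. None of the list was lower, and its median log2 ratio was 0.26. The lists were written with earlier results of these data known, so this ranking is a description and not a test. On the scale of all rows the filter was applied to the rescaled values, so not all 15 genes were kept. Of those kept, 1 was higher, 4 were lower and the median was −0.38. *Cebpb*, a C/EBP factor that pairs with ATF4, was at 3.53 and 10.1 FPKM (log2 ratio 1.49). *Bbc3*, which encodes the pro-apoptotic protein PUMA, was at 1.98 and 4.51 FPKM (1.15), and *Eif4ebp1*, which encodes an inhibitor of cap-dependent translation, at 6.06 and 13.4 FPKM (1.14). The remaining 2, chosen after their values were seen, were *Nupr1*, a stress-induced nuclear protein, at 156 and 338 FPKM (1.11), and *Sesn2*, a regulator of mTORC1, at 3.62 and 6.38 FPKM (0.80). The intervals of the libraries lay apart for all 5, but the mutant values of *Cebpb* and *Eif4ebp1* lay above their own intervals. The members of the list above the filter, *Atf4* and *Ddit3*, were at 0.098 and −0.016. Besides *Trib3*, the listed genes *Chac1*, *Fgf21* and *Gdf15* stayed below 1 FPKM in both libraries.

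Genes of amino acid synthesis and uptake, many of them ATF4 targets, had 2 higher and none lower of 19 and a median log2 ratio of −0.045. *Cbs*, which encodes cystathionine beta-synthase, was at 6.32 and 13.8 FPKM (log2 ratio 1.11), and *Slc38a2*, which encodes a neutral amino acid transporter, at 68.8 and 129.5 FPKM (0.91). The control value of *Slc38a2* lay just above its own interval of 64.6 to 68.3 FPKM. Among 20 cytosolic aminoacyl-tRNA synthetases, which ATF4 also induces in part, 1 was higher, 2 were lower and the median was −0.10. *Sars*, for seryl-tRNA, was at 26.7 and 44.2 FPKM (0.72), whereas *Iars*, for isoleucyl-tRNA, was at 34.9 and 21.1 FPKM (−0.73) and *Yars*, for tyrosyl-tRNA, at 31.0 and 20.3 FPKM (−0.61). Of all 135 listed genes above the filter, the heat shock genes of the closing section included, 11.1% were higher and 2.22% lower.

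**Figure D4:**
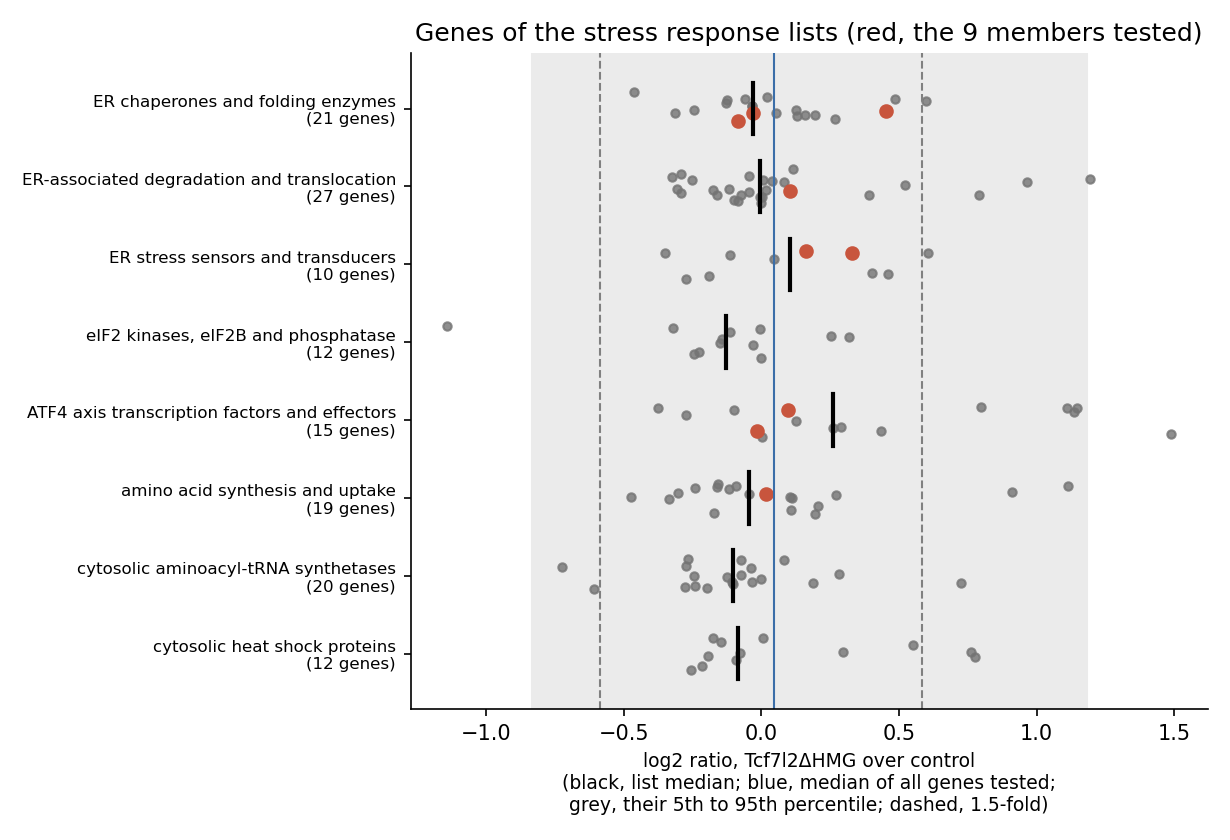
Log2 ratio of *Tcf7l2*ΔHMG to control for the genes of 8 stress response lists with at least 1 FPKM in at least 1 library (points, with the 9 members in red and list medians as black bars). The grey band holds 90% of all 14199 genes tested, from −0.83 to 1.18, and list medians lie between −0.13 (eIF2 genes) and 0.26 (ATF4 axis).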

How the data were processed

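RNA-seq libraries of P12 optic nerve were mapped with TopHat at default settings, and the authors deposited FPKM per gene computed with Cufflinks, with the lower and upper bound of its confidence interval. The submitters' processing notes give mm9 as genome build, and tool versions are not given in the sources used here. Comma-merged names were split, FPKM of repeated symbols was added up, and the libraries were joined by symbol. Genes with status OK in both and at least 1 FPKM in at least 1 library (14199) were compared by log2 of mutant over control FPKM, each plus 0.1, which understates the change of low genes. With 1 library per genotype no test was made, and a gene was counted as higher or lower above a fold change of 1.5. Interval spans of a ratio divide the lowest bound of one library by the highest of the other. They cover sampling error only. Depth was found from interval bounds of unnamed rows under 100 bases, which were whole multiples of 1 fragment. Starts in the tables count from 0 and are printed from 1. Counting was tested on simulated data. All 10 members are named, and in each list up to 3 genes with the largest ratios past the cutoff in each direction. Other list genes given with ratios are marked as chosen after their values were seen. Members and lists were chosen with earlier results of these data known. Alternatives of pseudocount, filter, scaling, status, row choice, merged names and cutoff were computed. Python 3.11.15, numpy 2.4.6, pandas 2.3.3 and matplotlib 3.10.9 were used.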

Additional observations from a re-analysis of the deposited data

How the results depend on the processing

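No paired analysis was possible because each genotype had 1 library. Over 14 alternatives, no member was higher by more than 1.5-fold in any setting, and none was lower except after all rows were rescaled to a sum of 1000000. On that scale 4 members were lower, none of the 9 had a log2 ratio above 0 (against 6), and the median of the members was −0.57 (against 0.098). On the same scale the lists together had 1 gene higher and 85 lower (against 15 and 3), counted over genes that passed the filter after rescaling. *Canx* and *Creb3l1* changed sign, to −0.073 and −0.060. With a fold change above 2, 6 listed genes were higher and 1 was lower. Of 139 recomputed member ratios, 10 lay outside the span set by the Cufflinks bounds. Over all genes tested, the number higher and lower was 3207 and 1644 with no filter, 1290 and 889 with at least 5 FPKM in 1 library, and 975 and 522 with a fold change above 2. Depth limits *Trib3* most, and variation between animals could not be measured for any gene.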

Other observations

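Heat shock proteins of the cytosol, which serve a folding response separate from that of the ER, were also read in these libraries. Of 12 such genes above the filter with status OK, 2 were higher in the *Tcf7l2*ΔHMG library by more than 1.5-fold and none was lower, with a median log2 ratio of −0.085. *Hspb1*, which encodes HSP27, was at 41.9 FPKM in control nerves and 71.8 FPKM in mutant nerves (log2 ratio 0.78), and *Hspb8*, a partner of the co-chaperone BAG3, at 60.3 and 102 FPKM (0.76). The values of *Hspb1* and *Hspb8* lay above their own Cufflinks intervals in both libraries. On the scale of all rows the log2 ratios were 0.11 and 0.090. With rows of any status, 4 were higher, and these included the inducible Hsp70 genes *Hspa1a* (2.07 and 3.48 FPKM, 0.72) and *Hspa1b* (1.82 and 2.87 FPKM, 0.63), near-identical copies whose reads may be shared. *Cryab*, a small heat shock protein like *Hspb1* and *Hspb8*, was at 213 and 179 FPKM (−0.25). *Hspa1a*, *Hspa1b* and *Cryab* were named after their values were seen.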
